A study of Mus musculus with 51 samples.

Results

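Prkaca and Atp2b2 were followed over 51 spotted 2-colour arrays that carried known amounts of spiked RNA. The members were taken as every spot that the platform annotation assigns to either symbol. This gave 4 of the 16896 spots: spots 1913 and 1935 for Prkaca, both listed with the clone sequence BC054834, and spots 14664 and 14686 for Atp2b2, both listed with BC075643. Each gene thus had 1 probe, spotted at 2 places that lie 22 spots from each other, and the average of those spots formed 1 of 7920 features. Both genes were chosen by their ratios at 2 pmol set against 0 pmol, where Prkaca lay among the most negative and Atp2b2 among the most positive features, and Prkaca was also known to lie low at 0.025 pmol. Their values at 0, 0.025 and 2 pmol are therefore given as a description, and tests were made only on the 39 arrays of 0.05 to 1 pmol.

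All arrays were hybridised with RNA of the mouse hybridoma CRL1606, made by fusing BALB/c spleen cells with the myeloma P3-X63-Ag8, which secretes antibody against human fibronectin and was grown in suspension without serum. Per the labels, 100 genes were spiked into this RNA in one channel and another 100 in the second channel, with the same amount for each gene. The amounts were 0, 0.05, 0.1, 0.25, 0.5 and 0.75 pmol with 6 arrays each, and 0.025, 0.15, 0.2, 1 and 2 pmol with 3 arrays each. At 0 pmol the same unspiked RNA was in both channels. The labels do not name the spiked genes, give no batch and leave unsaid whether replicates were separate cultures. The p-values therefore cover only array-to-array spread, some of which may be technical.

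Prkaca encodes a catalytic subunit of protein kinase A. The kinase is held inactive by regulatory subunits, and cyclic AMP frees the catalytic subunits, which then phosphorylate targets such as the transcription factor CREB. Atp2b2 encodes a plasma membrane calcium ATPase, a pump that uses ATP to move calcium out of the cell, and its loss in mice is known for deafness and imbalance. Because each array compares the same hybridoma RNA with itself, a ratio here reports a difference between the channels and not the level of either gene in the line, and cell type markers could not be checked.

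The values were log2 ratios of the channels, centred on the median of the non-control spots of each array and averaged over the pair of spots. No label or header says which channel was the numerator, so ratios are called positive or negative only. The arrays measured from 8376 to 16869 spots. The 1 pmol arrays stood apart, missing 13.5%, 50.4% and 30.5% of their spots, and so did replicate 4 at 0.75 pmol, in which the paired spots of all features correlated with r 0.198. The array medians used for centring ran from -3.33 to 0.971.

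Prkaca was measured on 49 arrays and was missing on 1 pmol replicates 2 and 3, which were also the arrays with the most missing spots. Its ratio was negative on 43 of 43 spiked arrays that measured it. Atp2b2 was measured on all 51 arrays and was positive on 45 of 45 spiked arrays. None of the 4 spots reached the upper limit of the deposited ratios. The paired spots differed by a median of 0.13 log2 units for Prkaca and 0.14 for Atp2b2. The widest gap for Atp2b2 was 0.33. For Prkaca 3 arrays had a gap over 0.5, the widest being 1.20 on 0.05 pmol replicate 1.

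At 2 pmol the ratio of Prkaca was -6.84, -6.68 and -6.60 on the 3 arrays, against a lowest value of 0.31, a median of 0.55 and a highest of 0.78 on the 6 arrays at 0 pmol. The groups were far apart, and the difference of the means was -7.25 with a standard error of 0.73. By mean ratio Prkaca held place 9 of 7917 features from the bottom. Atp2b2 had 8.67, 8.29 and 7.28 at 2 pmol, against a lowest value of 0.22, a median of 0.50 and a highest of 0.65 at 0 pmol. Its difference was 7.59 with a standard error of 0.62, and it held place 3 from the top. These values chose the genes, so no test is attached to them. Both genes were slightly positive on all 6 unspiked arrays.

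At the lowest spiked amount, 0.025 pmol, both genes already lay apart from the unspiked arrays. Prkaca had -3.16, -5.34 and -4.83 in replicates 1, 2 and 3, and Atp2b2 had 2.65, 2.67 and 4.17. The differences from 0 pmol were -5.00 for Prkaca and 2.67 for Atp2b2, and that of Prkaca was -3.26 with array set as a covariate. The array with the weakest Prkaca ratio was thus also one of those with the weakest Atp2b2 ratio, but the strongest Atp2b2 ratio was not on the array with the strongest Prkaca ratio.

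**Figure D1:**
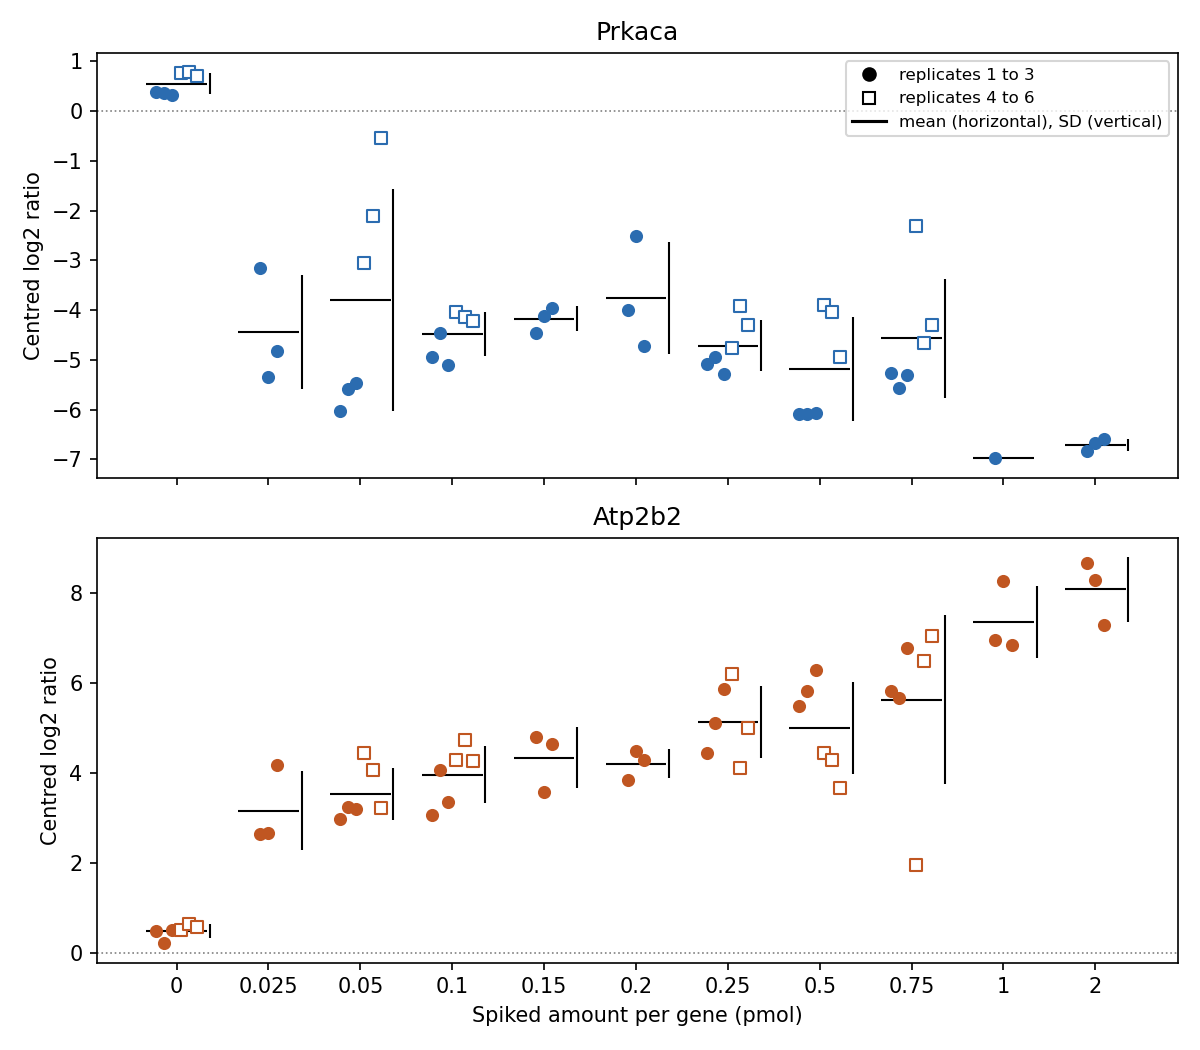
Centred log2 ratio (vertical axis) of Prkaca and Atp2b2 on each array, by spiked amount per gene in pmol (horizontal axis, evenly spaced categories). Filled circles are replicates 1 to 3 and open squares replicates 4 to 6, horizontal lines are means and vertical lines 1 SD on either side. Prkaca lies below 0 on every spiked array that measured it and Atp2b2 above 0, with Atp2b2 at 1.96 on 0.75 pmol replicate 4 far below its other values there.

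The tests asked whether each gene differed from a ratio of 0 at the amounts that had not chosen it. Both did so at every amount that could be tested. At 0.05 pmol Prkaca averaged -3.80 ± 2.24 (SD, n = 6), with a lowest value of -6.03, a median of -4.26 and a highest of -0.54, the widest spread of any amount. The 6 arrays of 0.1 pmol were much closer together, at -4.48 ± 0.45 and between -5.11 and -4.04 with a median of -4.33. Prkaca had -4.45, -4.11 and -3.96 at 0.15 pmol (mean -4.17 ± 0.25, n = 3), and -4.01, -2.52 and -4.73 at 0.2 pmol (mean -3.75 ± 1.13, n = 3). The value closest to the unspiked arrays was that of 0.05 pmol replicate 6. The mean was -4.72 ± 0.51 at 0.25 pmol (lowest -5.29, median -4.86, highest -3.93). It was -5.19 ± 1.04 at 0.5 pmol (lowest -6.08, median -5.51, highest -3.90), and -4.57 ± 1.20 at 0.75 pmol (lowest -5.57, median -4.96, highest -2.31), with 6 arrays each. The adjusted p in limma was at most 8.62e-05 over these 7 amounts. At 1 pmol the one array that measured Prkaca gave -6.98, which could not be tested.

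At 0.05 pmol Atp2b2 averaged 3.53 ± 0.58 (SD, n = 6), with a lowest value of 2.98, a median of 3.24 and a highest of 4.45. The 6 arrays of 0.1 pmol gave 3.96 ± 0.63, between 3.07 and 4.74 with a median of 4.16. Atp2b2 had 4.81, 3.57 and 4.65 at 0.15 pmol (mean 4.34 ± 0.67, n = 3), and 3.85, 4.49 and 4.29 at 0.2 pmol (mean 4.21 ± 0.33, n = 3). These amounts overlapped one another throughout. The mean was 5.12 ± 0.80 at 0.25 pmol (lowest 4.11, median 5.06, highest 6.19) and 5.0 ± 1.01 at 0.5 pmol (lowest 3.67, median 4.96, highest 6.28), with 6 arrays each. At 0.75 pmol it was 5.63 ± 1.87 (lowest 1.96, median 6.16, highest 7.04, n = 6). The 3 arrays of 1 pmol, at 6.95, 8.27 and 6.84, averaged 7.36 ± 0.80 and overlapped only the top of the 0.75 pmol range among the lower amounts. With arrays scaled to one spread, however, the Atp2b2 mean at 1 pmol was 4.11, below the Atp2b2 mean at 0.15 pmol (4.77) and the Atp2b2 mean at 0.5 pmol (6.11) on that scale. These 3 arrays had median absolute deviations of 0.762, 1.28 and 1.02 over the non-control spots. The adjusted p in limma was at most 6.12e-07 over these 8 amounts. The share of all features that differed from 0 was 25.9% at 0.05 pmol, 8.21% at 0.1 pmol, 8.48% at 0.15 pmol and 5.38% at 0.2 pmol. It was 9.51% at 0.25 pmol, 17% at 0.5 pmol, 12.1% at 0.75 pmol and 44.1% at 1 pmol. A call at 0.05 or 1 pmol was thus far more common among all features than one at 0.2 pmol. By mean ratio Prkaca held places 11 to 32 from the bottom at these amounts, and Atp2b2 places 5 to 46 from the top.

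The order of the amounts is given as a description, since the values at 0, 0.025 and 2 pmol chose the genes. For Atp2b2 the means descended in the order 2, 1, 0.75, 0.25, 0.5, 0.15, 0.2, 0.1, 0.05, 0.025 and 0 pmol, so that 0.25 and 0.5 pmol and 0.15 and 0.2 pmol were out of sequence. Of the 10 neighbouring pairs in this order, 9 had overlapping ranges, and the step between 0.025 and 0 pmol had none. For Prkaca the most negative mean was at 1 pmol (1 array), followed by 2, 0.5, 0.25, 0.75, 0.1, 0.025, 0.15, 0.05, 0.2 and 0 pmol. All neighbours between 0.5 and 0.2 pmol in that order overlapped, 7 of 10 pairs in all. The single array at 1 pmol lay beyond the 3 at 2 pmol, those lay beyond every array at 0.5 pmol, and 0.2 pmol lay apart from 0 pmol.

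Within the spiked amounts, the slope asked how far the ratio moved with each doubling of the amount. Atp2b2 rose by 0.65 log2 units per doubling over 39 arrays (standard error 0.11, limma adjusted p = 0.00071). Over all features, 5.63% had a slope past the threshold in either direction. Pearson's r with the log2 amount was 0.673 and Spearman's rho 0.705, both with a permutation p of 1e-05, the smallest that 100000 permutations can give, and a value of 2e-05 once adjusted over the 4 relations. With the 6 arrays of 0.05 pmol left out, which lie at the low end of these amounts, r was 0.606 (adjusted permutation p = 2e-04). Leaving out instead the 1 pmol arrays, at the high end, gave an r of 0.588 (adjusted permutation p = 0.00034).

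For Prkaca the slope was -0.31 per doubling over 37 arrays (standard error 0.14), with an unadjusted p of 0.0282 and a limma adjusted p of 0.154, and so did not pass. The correlation of Prkaca with the log2 amount did not pass either, with a Pearson r of -0.341 (adjusted permutation p = 0.0503) and a Spearman rho of -0.273 (adjusted permutation p = 0.101). With the arrays of 0.05 pmol left out r was -0.322 (adjusted permutation p = 0.076). Without the 1 pmol array r was -0.277 (adjusted permutation p = 0.135) and rho -0.21 (adjusted permutation p = 0.218). The difference in slope size between the genes was not tested. Leaving out 0.75 pmol replicate 4 gave a Prkaca slope of -0.39 with a limma adjusted p of 0.0552 and a Prkaca Pearson r with amount of -0.436 (adjusted permutation p = 0.00949). In all, leaving out 1 array took this r past the threshold for 11 of the 37 arrays that measured Prkaca. Leaving out 0.05 pmol replicate 6, in which Prkaca was closest to 0, gave a slope of -0.20 (limma adjusted p = 0.348).

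**Figure D2:**
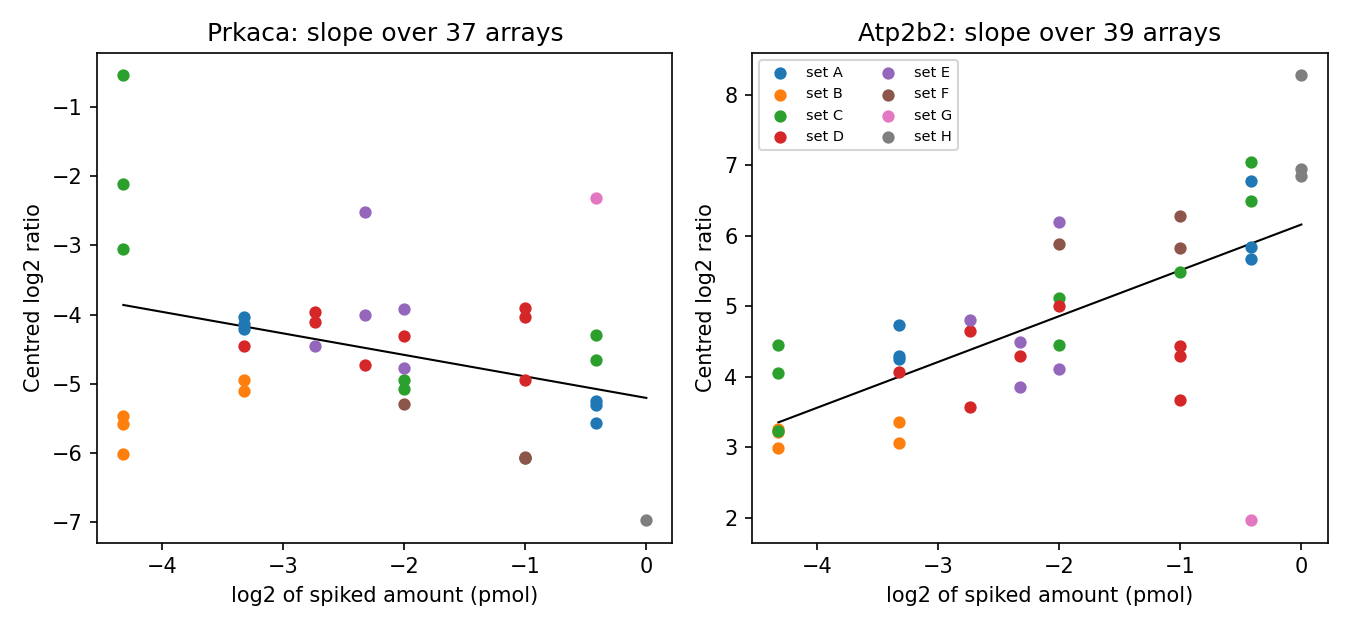
Centred log2 ratio (vertical axis) against log2 of the spiked amount in pmol (horizontal axis) for Prkaca, left, and Atp2b2, right, over the arrays of 0.05 to 1 pmol. Points are arrays, coloured by array set, and the line has the fitted slope, -0.31 per doubling for Prkaca and 0.65 for Atp2b2. At 0.05 pmol the Prkaca values of sets B and C lie far apart.

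The arrays were grouped into sets that the labels do not name. A clustering of the arrays over 3323 features, without those farthest from 0, was cut into 8 sets, written A to H. The number of sets was chosen and not found from the data, and every result with a term for array set rests on this cut. Sets A, C and D held at least 6 of the 39 arrays. Within them the Atp2b2 slope was 0.57 in set A (6 arrays), 0.65 in set C (8 arrays) and 0.02 in set D (8 arrays), and the Prkaca slope was -0.43, -0.84 and -0.01. Set A held 2 spiked amounts, and set D, in which both slopes were smaller than their standard errors (0.17 for Prkaca and 0.21 for Atp2b2), spanned 0.1 to 0.5 pmol. Over replicates 1 to 3 and over replicates 4 to 6 the Atp2b2 slope was 0.94 and 0.21 (24 and 15 arrays), and the Prkaca slope -0.22 and -0.41 (22 and 15 arrays). Replicates 1 to 3 held 8 amounts and replicates 4 to 6 held 5, without 0.15, 0.2 and 1 pmol, so these slopes cover unlike ranges. Over replicates 4 to 6 the Atp2b2 slope did not pass (limma adjusted p = 0.601). Fitted with a term for the set, the Atp2b2 slope passed over 39 arrays (0.51, limma adjusted p = 0.000741). So did that of Prkaca over 37 arrays (-0.55, standard error 0.12, limma adjusted p = 0.0041). Set G held only 0.75 pmol replicate 4 and set H only the 1 pmol arrays, so with this term neither set bears on the slopes. The 1 pmol arrays formed a set of their own, so set and amount cannot be told apart there. The 0 pmol arrays were all in set A, those of 0.025 pmol in set B and those of 2 pmol in set F. Each of these sets also held other amounts. The differences of 0.025 and 2 pmol from 0 pmol, with the gene list counts there, thus also compared array sets.

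Prkaca ratios lay apart between replicates 1 to 3 and replicates 4 to 6 of an amount, which is given as a description, since the labels attach no meaning to the numbers. At 0.05 pmol it was -6.03, -5.59 and -5.46 in replicates 1 to 3, and -3.05, -2.11 and -0.54 in replicates 4 to 6. At 0.5 pmol the first 3 replicates were close together, at -6.08, -6.08 and -6.06, and replicates 4 to 6 gave -3.90, -4.03 and -4.95. The means were -4.84 in replicates 1 to 3 and -4.13 in replicates 4 to 6 at 0.1 pmol, -5.11 and -4.33 at 0.25 pmol, and -5.38 and -3.76 at 0.75 pmol. These groups of replicates did not overlap at any of the 5 spiked amounts with 6 arrays, with replicates 1 to 3 the more negative each time. They did not overlap at 0 pmol either, at 0.35 ± 0.04 in replicates 1 to 3 and 0.75 ± 0.03 in replicates 4 to 6 (SD, n = 3 each). How often these replicate groups were apart among all features was not counted, with or without centring. The split therefore cannot be called particular to Prkaca.

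The pattern was different without centring. There, the replicate groups of Prkaca were apart at 2 of the 5 amounts, 0.05 and 0.5 pmol. The deposited ratios averaged -5.75 in replicates 1 to 3 and -5.85 in replicates 4 to 6 at 0.1 pmol, and -5.51 and -6.52 at 0.25 pmol, in the opposite order. At each of the 5 spiked amounts, replicates 1 to 3 shared no array set with replicates 4 to 6. At 0.05 pmol, replicates 1 to 3 belonged to array set B and replicates 4 to 6 to set C. The paired-spot correlation of all features was 0.925 to 0.958 in replicates 1 to 3 and 0.455 to 0.691 in replicates 4 to 6. At the 5 spiked amounts array set and replicate group cannot be told apart, and whether array set played a part in the gap was not tested. The 0 pmol arrays were all in set A.

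Atp2b2 did not divide in the same way. At 0.5 pmol it was higher in replicates 1 to 3 (5.49, 5.83 and 6.28) than in replicates 4 to 6 (4.44, 4.30 and 3.67). The 0.1 pmol arrays ran the other way, with 3.07, 4.07 and 3.36 in replicates 1 to 3 and 4.29, 4.74 and 4.26 in replicates 4 to 6. The sign of that difference (-0.93) was kept without centring (-0.12) and turned with arrays scaled to one spread (1.10). These were the 2 of 5 spiked amounts at which its replicate groups did not overlap, and without centring they overlapped at all 5. Here too the share among all features was not counted. The means at 0.05 pmol were 3.15 in replicates 1 to 3 and 3.91 in replicates 4 to 6, where Prkaca was weaker. These overlapped, and the order was the opposite in the deposited ratios (2.33 for replicates 1 to 3, 1.48 for replicates 4 to 6) as well as with arrays scaled to one spread, where the difference was 0.42. Over the 43 spiked arrays that measured both, the genes correlated with r -0.552, and over all 49 such arrays with r -0.80. Both values are descriptions, since the arrays share amounts and sets.

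On 0.75 pmol replicate 4 both genes were nearer to 0 than on the other 5 arrays of that amount. Atp2b2 had 1.96 there, against 5.67 to 7.04 on the others, and Prkaca -2.31, against -5.57 to -4.30. Without this array the means at 0.75 pmol were 6.36 for Atp2b2 and -5.02 for Prkaca.

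The features most like each gene over the arrays were largely other strongly shifted ones. Among 7895 features measured on at least 45 arrays, those that followed Prkaca most closely were Slc7a1, a cationic amino acid transporter (r 0.931 over 49 arrays), Fem1c at spot 15721, a substrate receptor of a ubiquitin ligase (0.922), and Papola, the poly(A) polymerase (0.92). Topbp1, a replication checkpoint protein (0.90), and Trp53bp1, a DNA break response protein (0.889), came next. Over the 43 spiked arrays alone, these correlations were lower, from 0.654 for Trp53bp1 to 0.813 for Slc7a1. Slc7a1 was printed in block 6, as was Prkaca. It had a mean of -3.15 at 0.05 pmol and -4.56 at 2 pmol, less negative than Prkaca at both, and 0.67 at 0 pmol.

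Atp2b2 was followed most closely by Cdc42bpg, a kinase that binds the GTPase Cdc42 (r 0.956 over 51 arrays), by the feature without a symbol at spot 839 (0.943), and by Sspn, a member of the dystrophin complex (0.927). Tpbg, the trophoblast glycoprotein (0.919), Rusc2 (0.91) and Ccdc9 (0.905) completed the list. Over the 45 spiked arrays alone the correlations ran from 0.811 for Ccdc9 to 0.917 for Cdc42bpg. Cdc42bpg and Rusc2 were printed one above the other in block 6, and Atp2b2 in block 42. The mean of Cdc42bpg was 3.24 at 0.025 pmol and 7.56 at 2 pmol, near the 3.16 and 8.08 of Atp2b2, while Rusc2 gave 1.30 and 5.19. The arrays shared by all these correlations carry a common spike amount, and both genes were chosen for a large shift.

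**Figure D3:**
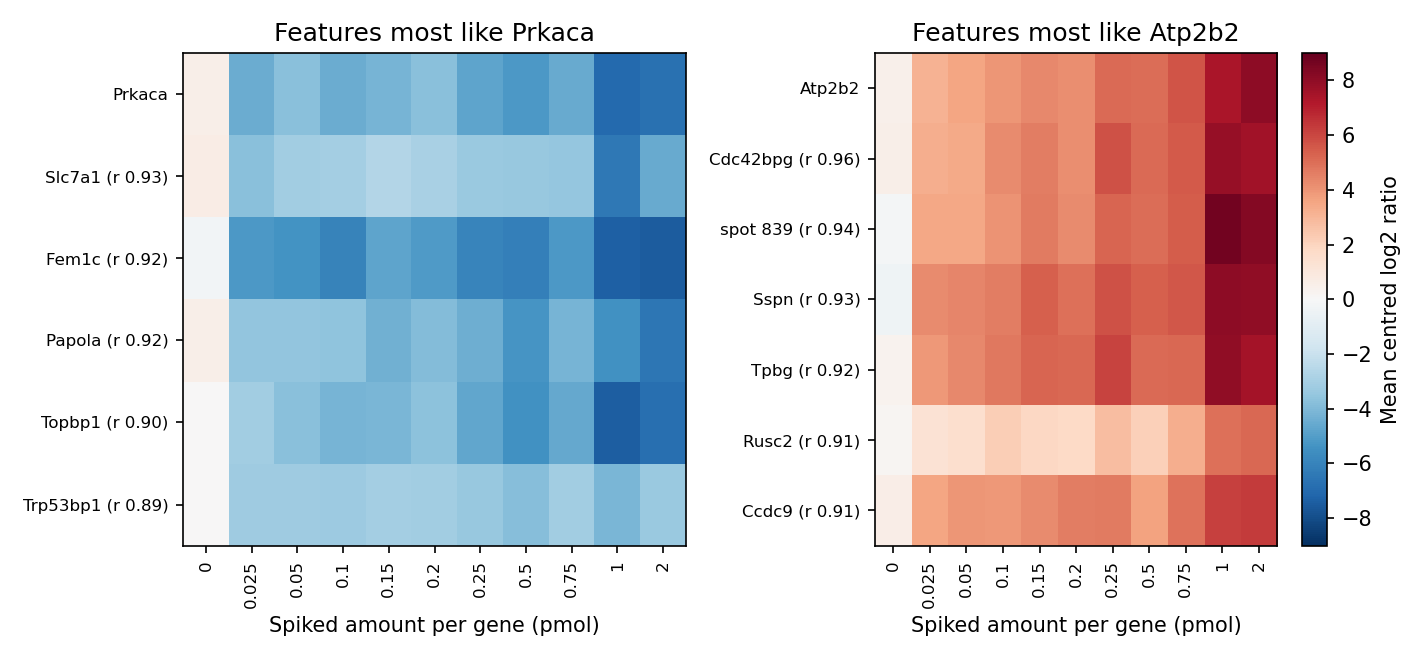
Mean centred log2 ratio (colour) by spiked amount per gene in pmol (horizontal axis) for Prkaca and the 5 features most like it, left, and for Atp2b2 and the 6 most like it, right, with Pearson's r over the arrays in brackets. At 0 pmol the like features lie between -0.40 and 0.67, and the Prkaca group is negative and the Atp2b2 group positive at each spiked amount. The Prkaca value at 1 pmol is 1 array.

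The features printed around each gene were also read. Around Prkaca, Erich2 on the left had a mean of 0.14 over the arrays of 0.05 to 1 pmol and Fgfbp1 above had 0.73, against -4.52 for Prkaca. The unnamed feature at spot 1957, below Prkaca, had -1.41 and was negative on 33 of 36 arrays. Its r to Prkaca was 0.705, taken over all arrays that measured both. The place to the right held a control. Around Atp2b2, the unnamed features at spots 14663 and 14665 on either side had -0.06 and 0.01, and Mgat5b above had 0.23, against 4.80 for Atp2b2. The feature below it, B230208B08Rik, had 1.03 and was positive on 34 of 38 arrays. Its r to Atp2b2 was 0.889, again over all arrays that measured both. For each gene the feature printed below thus had that gene's sign on most arrays of 0.05 to 1 pmol, at a smaller size. Both correlations include the unspiked arrays and the other arrays that chose the genes. No r was taken over the arrays of 0.05 to 1 pmol alone, so they cannot show whether the features moved together there. Whether position played a part was not tested.

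Other genes of the cyclic AMP pathway were counted at each amount against 0 pmol. Of 51 listed genes, 18 besides Prkaca were measured, by 28 features. At 2 pmol against 0 pmol, 5 of the 28 features passed in limma, 3 positive and 2 negative, or 17.9%. Of all features 15.6% passed, 10.3% positive and 5.33% negative. The count at 2 pmol was 9 without centring, 2 with a term for array set, and 3 on leaving out 0 pmol replicate 4, 0 pmol replicate 5, 2 pmol replicate 1 or 2 pmol replicate 3. The median difference of the list was -0.13, and that of all features 0.04. At the other amounts the calls numbered 0 at 0.025, 0.05 and 0.75 pmol, where 3, 3 and 5 had an unadjusted p under 0.05, 1 at 0.1 and 0.2 pmol, 2 at 0.15 and 3 at 0.25 pmol. They numbered 8 at 0.5 pmol, or 28.6% against 25.1% of all features, and 9 of 24 at 1 pmol, or 37.5% against 42.5%. These counts moved with the processing, to 22 at 0.5 pmol and 2 at 1 pmol without centring, and to 0 in limma at 0.5 pmol under a term for array set, where 1 had an unadjusted p under 0.05. Among all features 4.98% passed at 0.025 pmol, 4.15% at 0.05 pmol and 6.26% at 0.1 pmol. The share was 10.7% at 0.15 pmol, 8.89% at 0.2 pmol, 13% at 0.25 pmol and 7.49% at 0.75 pmol. All comparisons share the 0 pmol arrays.

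The paralogue Prkacb, the other main catalytic subunit, differed by -0.29 at 2 pmol (limma adjusted p = 0.659), with means of 0.18 at 2 pmol and 0.46 at 0 pmol. It passed at 1 pmol only, with a difference of -1.85. Gnas, the stimulatory G protein subunit that activates adenylyl cyclase, passed in the negative direction at 4 amounts, with -0.93 at 2 pmol and -1.49 at 1 pmol. Its difference was negative at every spiked amount, and its mean was -0.30 at 2 pmol and 0.63 at 0 pmol. Pde4a, a phosphodiesterase that degrades cyclic AMP, passed in the positive direction at 3 amounts at spot 9687. Its difference there was 1.63 at 2 pmol (limma adjusted p = 3.41e-05). The other Pde4a probe had 0.01 at 2 pmol and passed at 1 pmol in the negative direction (-1.28). Pde4d, a related phosphodiesterase, passed in the positive direction at 3 amounts at spot 1989, with 1.12 at 2 pmol, and its difference there was positive at every spiked amount. The mean at that spot was 0.03 at 2 pmol and -1.09 at 0 pmol. The other Pde4d probe, at spot 3051, had 0.59 at 2 pmol (limma adjusted p = 0.438) and passed only at 1 pmol, in the positive direction (2.66). Akap13, an anchoring protein of the kinase, had 8 probes, of which 1 passed at 2 pmol (1.47 at spot 8543). Another, at spot 12857, passed at 1 pmol in the negative direction, with -3.59 (limma adjusted p = 1.56e-07), the largest called difference of the list. The regulatory subunit Prkar2a was the other negative call at 2 pmol (-0.79), and was named after its value was seen.

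The calcium list was read in the same way. Of 57 listed genes, 20 besides Atp2b2 were measured, by 32 features. At 2 pmol, 9 of the 32 passed in limma, 6 positive and 3 negative, or 28.1%, against 15.6% of all features. With array set as a covariate the count at 2 pmol was 0 in limma, with 4 at an unadjusted p under 0.05. The median difference was -0.08 for the list and 0.04 for all features. At the other amounts the calls ranged up to 9 at 0.5 pmol (28.1% against 25.1%) and 12 of 25 at 1 pmol (48% against 42.5%). Without centring they were 29 at 0.5 pmol and 0 in limma at 1 pmol (3 at an unadjusted p under 0.05), and with array set as a covariate 1 at 0.5 pmol. With centring and without the covariate, they were 0 at 0.025 and 0.15 pmol, against 4.98% and 10.7% of all features. There, 3 and 4 had an unadjusted p under 0.05. At 0.05, 0.1 and 0.2 pmol 1 of 32 passed each time (3.12%), against 4.15%, 6.26% and 8.89% of all features. The count was 4 at 0.25 pmol (12.5% against 13%) and 3 at 0.75 pmol (9.38% against 7.49%).

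The related pump Atp2b1 had 3 probes, none of which passed at any amount in limma, with differences between -0.19 and 0.41 at 2 pmol. Its probe at spot 627 had a difference of -2.75 at 1 pmol, where too few arrays measured it for a test. Pln, which restrains the calcium pump of the sarcoplasmic reticulum, passed in the positive direction at 5 amounts, with a difference of 1.48 at 2 pmol. Its mean was 0.61 ± 0.25 (SD, n = 3) at 2 pmol and -0.87 ± 0.90 (n = 6) at 0 pmol. Ryr2, a calcium release channel, passed in the positive direction at 5 amounts at spot 4504 (1.37 at 2 pmol), and its other 3 probes were not called at any amount. Stim2, a calcium sensor of the endoplasmic reticulum, passed in the positive direction at 5 amounts at spot 10357. The Stim2 mean at that spot was -0.05 at 2 pmol and -1.43 at 0 pmol, so the probe was near 0 at 2 pmol and negative on the unspiked arrays. The other Stim2 probe, at spot 6617, was not called at any amount, with a difference of -0.02 at 2 pmol. The differences of Pln, Ryr2 at spot 4504 and Stim2 at spot 10357 were positive at every spiked amount, all against the same 0 pmol arrays. Atp2a2, the pump that returns calcium to the endoplasmic reticulum, passed in the negative direction at 4 amounts, with -1.68 at 2 pmol.

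**Figure D4:**
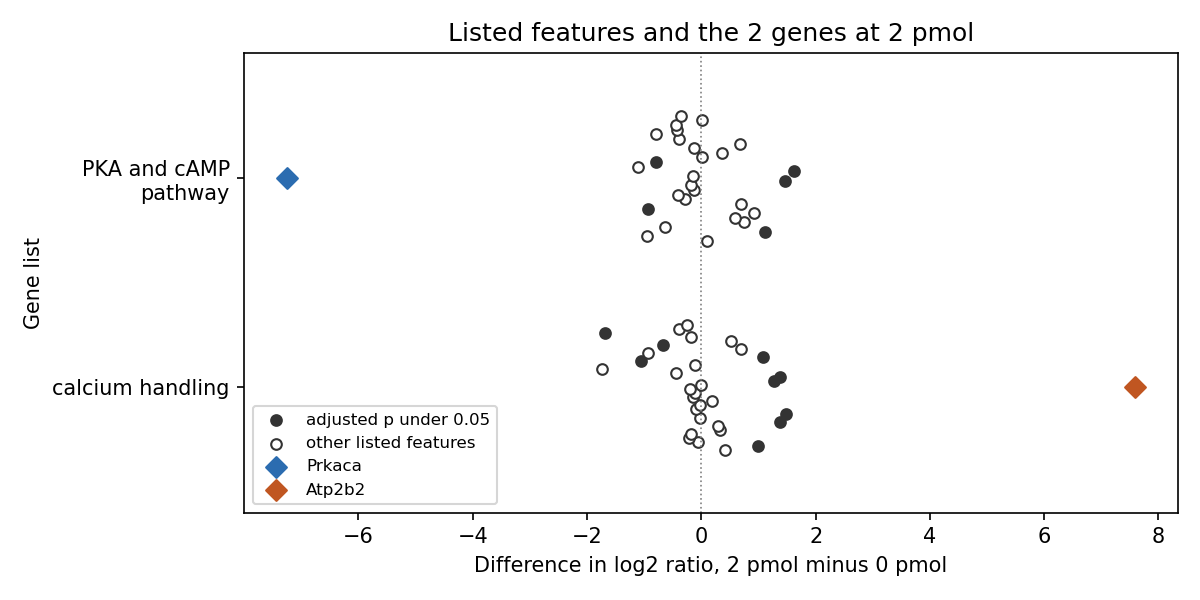
Difference in log2 ratio between 2 and 0 pmol (horizontal axis) for each feature of the cyclic AMP and calcium lists (rows, with points spread vertically by spot order). Filled circles passed the test in limma, open circles are the other listed features, and diamonds are Prkaca (-7.25) and Atp2b2 (7.59), which carry no test. The listed features lie between -1.74 and 1.63.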

How the data were processed

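The authors deposited a log2 ratio of the 2 channels per spot and array, per the file's values; background correction, normalisation, numerator and log base are stated in no label or header, and the base was read from the values. The upper limit of 16.61, log2 of a ratio of 100000, was set to missing (1074 values). Control positions (11 per print block, 528 features) were left out. Symbols were updated through Entrez identifiers with RefSeq names of GRCm38.p6 (10766 spots matched).

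Every feature entered the tests of limma 3.58.1 under R 4.3.3, two-sided, at a Benjamini-Hochberg adjusted p under 0.05 over all features, with at least 2 measured arrays per group, or 10 for a slope. Means against 0 and slopes used the 39 arrays of 0.05 to 1 pmol, and differences from 0 pmol used all 51. Correlations with the amount had 100000 two-sided permutations. Array sets came from Ward clustering cut at a chosen number of 8 sets, without the 200 most positive and 200 most negative features. The tests were tried on simulated data. Named features were the genes themselves, the 5 with symbols most like each (at most 2 without), printed neighbours, up to 4 per list by number of amounts called, then size, and paralogues. Members and lists were chosen with earlier results of these data known. Alternatives covered centring, array scaling, single spots, the upper limit, missing values, replicates and array sets. The number of arrays limits precision. Figures used matplotlib 3.10.9 in Python 3.11.15.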

Additional observations from a re-analysis of the deposited data

Results flagged for a closer look

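The ratio of Atp2b2 on 0.75 pmol replicate 4 was 1.96, while the other 5 arrays of that amount lay between 5.67 and 7.04. The gap to the nearest array was 0.731 of the whole range, above the critical share of 0.625 for 6 arrays. Of 12 groups of 6 arrays examined over both genes, this was the only such group, and chance alone marks about 1 in 20. On the same array Prkaca was at -2.31, with a gap of 0.609. The array had the lowest paired-spot correlation of the series, 0.198, and stood alone in its array set.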

How the results depend on the processing

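The sign and the call of the Prkaca mean at 0.05 to 0.75 pmol and of the Atp2b2 mean at 0.05 to 1 pmol held under every alternative that gave a value. The difference between 2 and 0 pmol for Prkaca (-7.25) was -5.89 without centring, -7.99 with arrays scaled to one spread, -6.50 with the replicate block and -7.06 over replicates 1 to 3. For Atp2b2 (7.59) it was 8.96 without centring, 8.5 with scaling and 6.27 with array set as a covariate, which also gave Prkaca -3.26 at 0.025 pmol against 0 pmol. The Prkaca slope with array set was -0.55. The Prkaca Pearson r was -0.362 with the first spot alone, and -0.436 to -0.248 with 1 array left out (Spearman -0.343 to -0.21). Over replicates 4 to 6 the Atp2b2 slope was 0.21, r 0.247 and rho 0.262, none past the threshold. Less 0.75 pmol replicate 4, an alternative chosen after seeing the data, they were 0.42, 0.555 and 0.497, and Prkaca r was -0.692 and rho -0.616. The cyclic AMP count at 2 pmol (5) was 9 without centring, 3 with the second spot, the upper limit kept, the replicate block or replicates 1 to 3, 2 with array set, and 3 to 5 with 1 array left out. The calcium count (9) was 0 with array set and 6 to 9 with 1 array left out. Replicate numbers did not pair the arrays: deviations of arrays with the same number correlated at 0.00667 on average, and 6 of 51 arrays were closest to their own number. The replicate block also gave 1 cyclic AMP call at 0.25 pmol and 2 calcium calls at 0.1 pmol, and changed no call of Prkaca or Atp2b2. Features with a slope numbered 446, 20 without centring, 168 with scaling, 1311 over replicates 1 to 3 and 0 in limma over replicates 4 to 6 (1267 at an unadjusted p under 0.05), and 253 to 626 with 1 array left out. Over the alternatives of the same test, the features that differed from 0 numbered 1023 to 7647 at 0.05 pmol (2051 as reported), 366 to 7552 at 0.1 (650), 416 to 1145 at 0.15 (671), 348 to 7613 at 0.2 (426), 593 to 7334 at 0.25 (753), 699 to 2009 at 0.5 (1346), 313 to 7774 at 0.75 (962) and 978 to 4658 at 1 pmol (2658). Tested against the 0 pmol arrays instead, 329 passed at 0.05, 704 at 0.2 and 593 at 0.75 pmol. Replicates 1 to 3 minus 4 to 6, added after seeing the data, gave for Prkaca without centring -1.76 at 0, 0.10 at 0.1 and 1.01 at 0.25 pmol, and with scaling -0.11 at 0 and -3.35 at 0.1 pmol. For Atp2b2 it gave without centring -1.54 at 0, 0.85 at 0.05, -0.12 at 0.1, 1.83 at 0.25 and 0.70 at 0.5 pmol, and with scaling 0.074 at 0, 0.42 at 0.05 and 1.10 at 0.1 pmol. The causes were not tested. Prkaca, missing on 2 arrays, had no mean, slope or correlation among features measured on all arrays, and array set gave no value at 1 pmol.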
